A study of Mus musculus with 4 samples.

Results

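Dopamine and adenosine reach striatal medium spiny neurons through G protein-coupled receptors that meet at one adenylyl cyclase. The 8 genes described here are the dopamine receptors Drd1, Drd2 and Drd3, the adenosine receptors Adora1 and Adora2a, the G protein subunits Gnal and Gng7, and the cyclase Adcy5. They were taken by symbol from the 37620 gene identifiers in the count and FPKM tables, and all 8 were found. On GRCm38 (GENCODE M21), Drd1 lies at chr13:54051183-54055705, Drd2 at chr9:49340627-49408177, Drd3 at chr16:43754026-43822932 and Adcy5 at chr16:35154877-35305738. Adora1 lies at chr1:134199223-134235431, Gnal on chromosome 18, and Adora2a and Gng7 both on chromosome 10, at chr10:75316877-75334784 and chr10:80948624-81014945. Gene-level RNA sequencing was done on neurons of the dorsal striatum sorted for GFP from male FVB/NJ mice aged 5 to 6 months. D2 BACHD and D1 BACHD cells came from mice hemizygous for a human bacterial artificial chromosome (BAC) that carries full-length mutant huntingtin with 97 glutamines. D2 WT and D1 WT cells came from mice without that BAC. D2 cells came from the Drd2-EGFP reporter line and D1 cells from the Drd1-EGFP line, both BAC transgenics, so the cell types also differ in reporter line. Each of the 4 groups was 1 library from 4 pooled animals, at 150000 cells per animal. No group therefore had a replicate, and how far pools of the same kind vary is unknown.

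In the direct-pathway neuron, the D1 receptor couples to the stimulatory G alpha subunit G-olf, which Gnal encodes, and raises cyclic AMP. In the indirect-pathway neuron, the receptor that Adora2a encodes uses the same G-olf and cyclase, while the D2 receptor couples to inhibitory G alpha subunits and lowers cyclic AMP. In mouse striatum, Gng7 encodes the gamma subunit that G-olf needs to be stable, and Adcy5 encodes the main adenylyl cyclase.

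The libraries held 43856970 (D2 BACHD), 44523571 (D2 WT), 41325600 (D1 BACHD) and 41684355 (D1 WT) counts. A count of 3, used as the lowest level read as present, was 0.0700, 0.0691, 0.0712 and 0.0703 CPM in that order of libraries. CPM are counts relative to the library total, here scaled by the trimmed mean of M values (TMM). Markers of other cells were present, and several lists moved with the groups. The 6 cortical glutamatergic markers summed to 5.25 CPM in D2 BACHD, 3.04 in D2 WT, 136.9 in D1 BACHD and 27.6 in D1 WT. The 5 oligodendrocyte markers summed to 372.9 CPM in D2 BACHD and 312.0 in D2 WT, and to 333.2 in D1 BACHD and 289.8 in D1 WT, with all 5 higher in BACHD in both cell types. The 5 microglial markers summed to 21.3 CPM in D2 BACHD, 17.9 in D2 WT, 14.0 in D1 BACHD and 11.4 in D1 WT, and the 5 interneuron markers to 6.26, 6.34, 29.1 and 22.8. The 5 astrocyte markers summed to 39.6 CPM in D2 BACHD, 38.9 in D2 WT, 37.8 in D1 BACHD and 27.4 in D1 WT, and the 4 endothelial markers to 2.62, 4.08, 2.02 and 1.48. The 3 measured markers of cholinergic interneurons, which also express Drd2, summed to 1.0 CPM at most. The 7 markers shared by both medium spiny neuron types summed to 9764 CPM in D2 BACHD and 10896 in D2 WT (0 of 7 higher in BACHD), and to 8556 in D1 BACHD and 9343 in D1 WT (1 of 7 higher). The part of these lists in the results below was not tested.

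Drd2, the inhibitory dopamine receptor, stood at 2036 CPM in D2 BACHD and 2098 in D2 WT, against 20.4 in D1 BACHD and 20.2 in D1 WT. Drd1, the stimulatory dopamine receptor, stood at 13.4 CPM in D2 BACHD and 18.5 in D2 WT, against 817.8 in D1 BACHD and 915.5 in D1 WT. Each receptor was thus high in its own sort and near 1% to 2% of that level in the other one. Drd2 in the D1 libraries was at 1.0% of the D2 level in BACHD and 0.964% in WT, and Drd1 in the D2 libraries was at 1.63% of the D1 level in BACHD and 2.02% in WT. These 2 genes name the reporters used for the sort, so their levels describe the sort and were not read as a test. The level of other markers in the wrong sort differed widely between genes: Pdyn, a direct-pathway peptide gene, was at 0.138% in BACHD and 0.334% in WT, and Tac1, another one, was at 8.53% and 10.4%. Reads of 1 cell type in the other sort and low expression in the cells themselves cannot be told apart here.

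Promoters of the receptor pair are shown because these genes carry the contrast between the sorts. Each is the 250 bases before the RefSeq start on GRCm38.p6, 5′ to 3′ on the gene's strand, with GC boxes (GGGCGG on either strand) in capitals. The Drd2 window lies at chr9:49340153-49340402 on the plus strand and the Drd1 window at chr13:54055659-54055908 on the minus strand.
Drd2: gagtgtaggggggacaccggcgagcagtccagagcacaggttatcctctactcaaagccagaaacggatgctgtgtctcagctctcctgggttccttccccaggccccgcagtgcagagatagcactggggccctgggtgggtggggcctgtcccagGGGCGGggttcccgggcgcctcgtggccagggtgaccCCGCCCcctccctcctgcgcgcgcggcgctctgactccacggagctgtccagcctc
Drd1: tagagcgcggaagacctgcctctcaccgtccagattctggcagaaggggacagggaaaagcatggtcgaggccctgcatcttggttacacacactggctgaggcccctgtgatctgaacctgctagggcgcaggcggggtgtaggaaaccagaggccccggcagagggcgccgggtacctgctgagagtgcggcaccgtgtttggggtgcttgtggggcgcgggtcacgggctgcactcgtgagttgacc
The Drd2 window held 2 GC boxes at 68.8% G and C, and the Drd1 window held 0 at 64.0%. Of 32851 mouse promoter windows of this length, 32.7% held a GC box, and the median content of G and C was 52.4%. A TATA box (TATAAA), a cyclic AMP response element half-site (TGACG) and an E-box (CANNTG), searched on both strands, were found in 12.4%, 17.8% and 66.2% of all windows. None of these letters occurred in either receptor's window.

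Drd3, a D2-like receptor gene, was close to the detection limit, with 11 counts in D2 BACHD, 11 in D2 WT, 36 in D1 BACHD and 30 in D1 WT. These counts correspond to 0.257, 0.253, 0.854 and 0.703 CPM, so Drd3 missed the filter of 1 CPM in 2 libraries and was the member that entered no test. The D2 to D1 ratio was -1.73 on the log2 scale in BACHD (95% counting interval -2.86 to -0.73) and -1.47 in WT (-2.62 to -0.43). Both ratios were below 0, so Drd3 reads were fewer in D2 than in D1 libraries in either genotype. Fitted with no filter, the difference between cell types was -1.59 ± 0.33 (log2, SE; edgeR adjusted p = 0.117).

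The remaining dopamine receptors were lower still. Drd4 had 5 counts in D2 BACHD, 9 in D2 WT, 15 in D1 BACHD and 16 in D1 WT. Drd5, the other D1-like receptor gene, had 0 counts in both D2 libraries, which allows up to the level of 3 counts, and 3 in D1 BACHD and 1 in D1 WT. By FPKM, which is scaled by gene length and so can be set beside other genes, Drd2 took 99.5% (D2 BACHD) and 99.3% (D2 WT) of the summed level of the 5 dopamine receptors. Drd1 took 96.3% in D1 BACHD and 96.8% in D1 WT. In its own sort, Drd2 stood at 790.3 and 812.0 FPKM in D2 BACHD and D2 WT, and Drd1 at 236.5 and 265.8 FPKM in D1 BACHD and D1 WT. Both genes name the reporters and the cell types differ in reporter line, so these levels describe the sorts and their difference was not tested.

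Adora2a, the stimulatory adenosine receptor, followed Drd2 across the libraries. Its level was 2061 CPM in D2 BACHD and 2211 in D2 WT, against 27.3 in D1 BACHD and 25.1 in D1 WT. Differences over all 4 libraries come from edgeR's quasi-likelihood test with a term for cell type and one for genotype, called at an adjusted p under 0.05. The D2 minus D1 difference of Adora2a was 6.35 ± 0.08 (log2, SE; edgeR adjusted p = 7.26e-09). The change held in both genotypes, with the level in the D1 library at 1.32% of that in the D2 library in BACHD and 1.14% in WT. Fewer cells of a type and less RNA per cell cannot be told apart in such pooled samples. Per length, Adora2a and Drd2 were almost level in D2 cells, with an Adora2a to Drd2 ratio of 1.01 in D2 BACHD and 1.05 in D2 WT. They ranked 34 and 35 of all identifiers in D2 BACHD and 33 and 34 in D2 WT.

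Adora1, the inhibitory adenosine receptor, was even across the 4 libraries. Its level was 195.9 CPM in D2 BACHD and 206.5 in D2 WT, against 199.8 in D1 BACHD and 198.9 in D1 WT. The groups overlapped, and the D2 minus D1 difference was 0.01 ± 0.05 (log2, SE; edgeR adjusted p = 0.900). Its sign turned to -0.05 under total-count scaling. Reads of Mybph, which overlaps Adora1 on the opposite strand, were few at 31 to 39 counts. The mix of adenosine receptors therefore differed between the sorts. Adora2a took 95.3% (D2 BACHD) and 95.4% (D2 WT) of the adenosine receptor FPKM, and Adora1 took 78.6% in D1 BACHD and 80.0% in D1 WT. The Adora1 to Adora2a ratio per length was 0.0486 in D2 BACHD and 0.0481 in D2 WT, against 3.76 in D1 BACHD and 4.05 in D1 WT. Adora2b, another receptor that raises cyclic AMP, had 16 counts in D2 BACHD, 13 in D2 WT, 17 in D1 BACHD and 5 in D1 WT. Its BACHD to WT ratio on the log2 scale was 1.78 in D1 cells (counting interval 0.29 to 3.58) and 0.32 in D2 cells (-0.83 to 1.49). Adora2b missed the filter and was not tested. Adora3, an inhibitory receptor, had 3, 3, 1 and 4 counts in D2 BACHD, D2 WT, D1 BACHD and D1 WT.

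**Figure D1:**
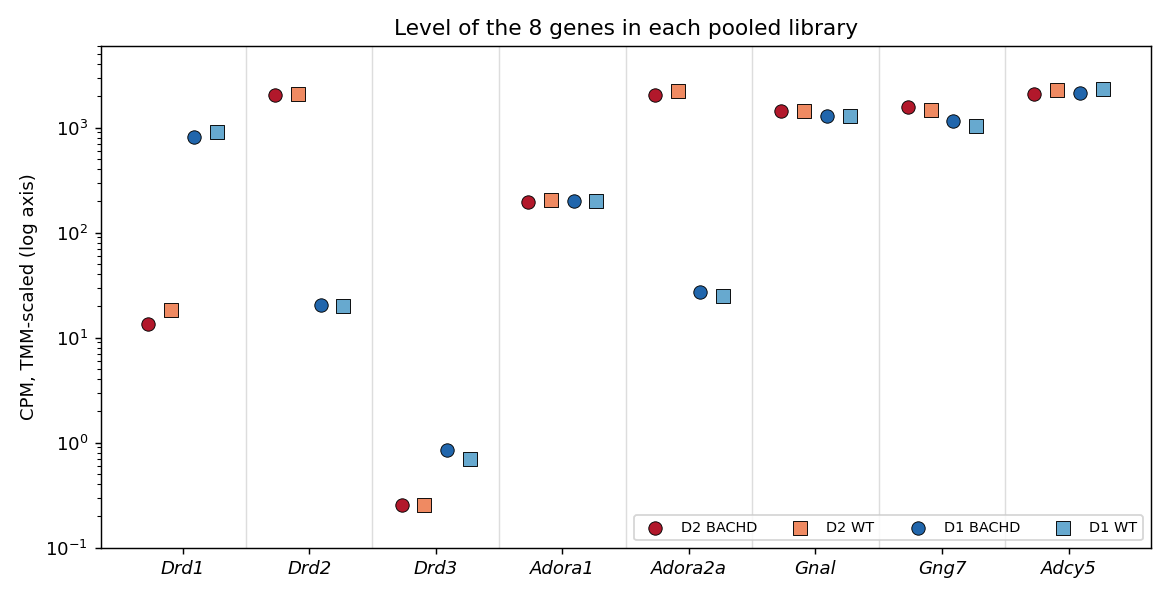
TMM-scaled CPM (log axis) of the 8 genes; each point is 1 pooled library, with circles for BACHD and squares for WT. Drd2 and Adora2a lie between 2036 and 2211 CPM in D2 cells and at 27.3 CPM or less in D1 cells, Drd1 shows the reverse order, and Adora1, Gnal and Adcy5 lie at nearly 1 level throughout.

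The genes whose profiles over the 4 libraries were nearest to each receptor were found by the Euclidean distance between centred log2 CPM profiles, among 9474 genes. Nearest to Adora2a were Penk, the indirect-pathway enkephalin gene, at a distance of 0.29, then Drd2 at 0.33 and A830012C17Rik at 0.43. Nearest to Drd2 were Adora2a at 0.33, Penk at 0.53 and A830012C17Rik at 0.74. Nearest to Drd1 were Vcp-rs at 0.23, Slc35d3 at 0.23 and Chrm4, the muscarinic M4 receptor gene, at 0.65. With 4 libraries in 2 cell types, such a distance describes mainly the step between the sorts.

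Gnal, the stimulatory G alpha subunit of striatal neurons, was high in every library. Its level was 1428 CPM in D2 BACHD and 1432 in D2 WT, against 1279 in D1 BACHD and 1286 in D1 WT. Both D2 libraries were above both D1 libraries, and the ratio was nearly the same in each genotype, at 0.16 on the log2 scale in BACHD (counting interval 0.14 to 0.18) and 0.15 in WT (0.14 to 0.17). The fitted difference of 0.16 ± 0.06 (log2, SE) missed the threshold, at an edgeR adjusted p of 0.0997. Exons of Mppe1 overlap Gnal on the opposite strand, with 957 to 1251 counts, so a small share of reads is of uncertain assignment.

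Gng7, the G gamma partner of G-olf, was higher in D2 cells. Its level was 1567 CPM in D2 BACHD and 1478 in D2 WT, against 1144 in D1 BACHD and 1045 in D1 WT. All D2 values lay above all D1 values, with a D2 to D1 ratio of 0.45 on the log2 scale in BACHD (counting interval 0.44 to 0.47) and 0.50 in WT (0.48 to 0.52). The fitted difference was 0.48 ± 0.06 (log2, SE; edgeR adjusted p = 0.000846). Without the D2 BACHD library the difference was 0.43 and the adjusted p 0.0729. Gm3828, a pseudogene inside Gng7 on its strand, had 53 to 91 counts.

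Adcy5, the cyclase, did not pass the test between cell types. Its level was 2085 CPM in D2 BACHD and 2294 in D2 WT, against 2133 in D1 BACHD and 2341 in D1 WT. The cell types overlapped, and the D2 minus D1 difference was -0.03 ± 0.06 (log2, SE; edgeR adjusted p = 0.788). The 2 BACHD libraries were the lowest of the 4.

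The promoters of Gng7 and Adcy5 are shown because the ratio between these genes is described below. The Gng7 window lies at chr10:81014926-81015175 on the minus strand and the Adcy5 window at chr16:35154614-35154863 on the plus strand, with GC boxes in capitals as before.
Gng7: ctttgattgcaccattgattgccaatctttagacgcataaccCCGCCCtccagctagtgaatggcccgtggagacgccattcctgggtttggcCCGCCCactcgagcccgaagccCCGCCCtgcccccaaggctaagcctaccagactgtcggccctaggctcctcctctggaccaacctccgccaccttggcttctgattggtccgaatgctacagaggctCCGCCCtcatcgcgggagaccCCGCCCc
Adcy5: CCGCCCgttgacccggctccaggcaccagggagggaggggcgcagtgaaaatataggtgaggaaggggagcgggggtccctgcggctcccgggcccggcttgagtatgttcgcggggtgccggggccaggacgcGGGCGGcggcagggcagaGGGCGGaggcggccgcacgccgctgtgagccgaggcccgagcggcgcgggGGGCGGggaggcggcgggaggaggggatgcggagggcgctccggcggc
The Gng7 window held 5 GC boxes at 62.8% G and C, and the Adcy5 window held 4 at 78.0%. Neither held a TATA box, a cyclic AMP response element half-site or an E-box as spelled above.

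Of the 7 members tested, 3 were higher in D2 cells (Drd2, Adora2a and Gng7) and 1 was lower (Drd1). Over all 13400 genes tested, 17.0% were called by the cell type term, 6.81% higher and 10.2% lower in D2 cells. Leaving out the 2 genes of the reporters, Adora2a and Gng7 were called and Adora1, Gnal and Adcy5 were not.

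Ratios between 2 genes of 1 library do not depend on how libraries are scaled. The Gng7 to Adcy5 ratio by FPKM was 1.57 in D2 BACHD and 1.35 in D2 WT, against 1.12 in D1 BACHD and 0.934 in D1 WT. Gng7 thus stood above Adcy5 in 3 libraries and below it in D1 WT. The Gnal to Adcy5 ratio was 0.933 in D2 BACHD and 0.851 in D2 WT, against 0.817 in D1 BACHD and 0.748 in D1 WT. The Gng7 to Gnal ratio was 1.68 in D2 BACHD and 1.58 in D2 WT, against 1.37 in D1 BACHD and 1.25 in D1 WT. All 3 ratios ran in the same order, higher in D2 than in D1 and higher in BACHD than in WT within each cell type. They share their genes, have no replicate pools and were not tested.

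**Figure D2:**
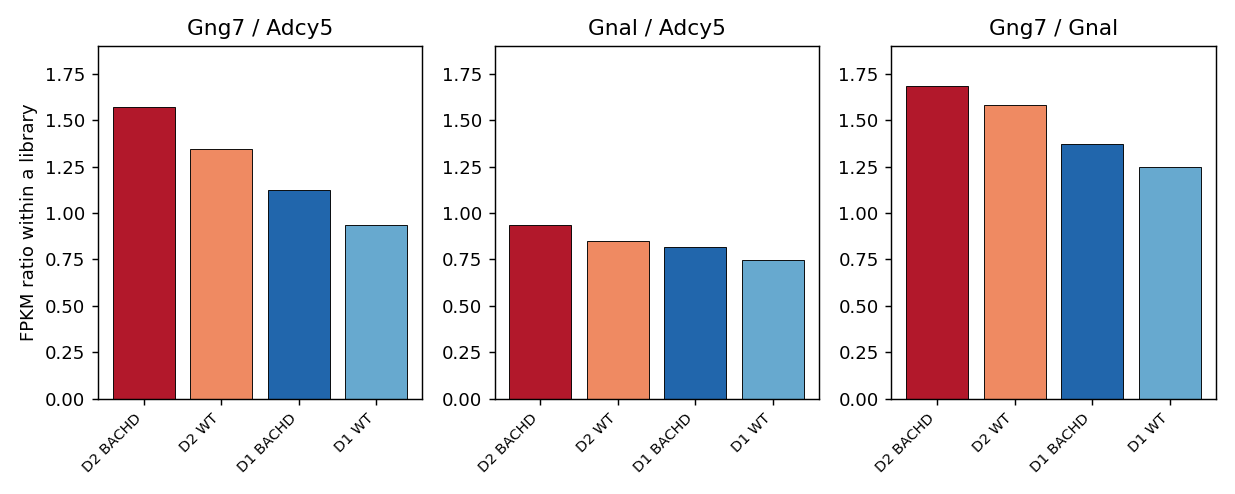
FPKM ratios of Gng7 to Adcy5, Gnal to Adcy5 and Gng7 to Gnal in each library; each bar is 1 pooled library and has no error bar because no group was replicated. The Gng7 to Adcy5 bar is tallest in D2 BACHD (1.57) and shortest in D1 WT (0.934).

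Gng7 and Adcy5 each took most of the summed FPKM of their family, and Gnal most of the sum of the 2 stimulatory G alpha subunits. Adcy5 took 86.9% of adenylyl cyclase FPKM in D2 BACHD, 87.2% in D2 WT, 86.7% in D1 BACHD and 88.1% in D1 WT, so the cyclase mix was alike in the 4 libraries. Gng7 took 82.8% of G gamma FPKM in D2 BACHD and 82.6% in D2 WT, against 75.1% in D1 BACHD and 75.2% in D1 WT. Gnal took 78.9% of the sum of Gnal and Gnas, the ubiquitous stimulatory G alpha subunit, in D2 BACHD and 77.2% in D2 WT, against 89.7% in D1 BACHD and 95.1% in D1 WT. Exons of Gm20721 overlap Gnas on the opposite strand, and the use of strand in counting is not given in the sources used here, so reads of Gnas are of uncertain assignment. With Gm20721 added to Gnas, the Gnal share was 66.0% in D2 BACHD, 67.4% in D2 WT, 83.5% in D1 BACHD and 92.9% in D1 WT.

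**Figure D3:**
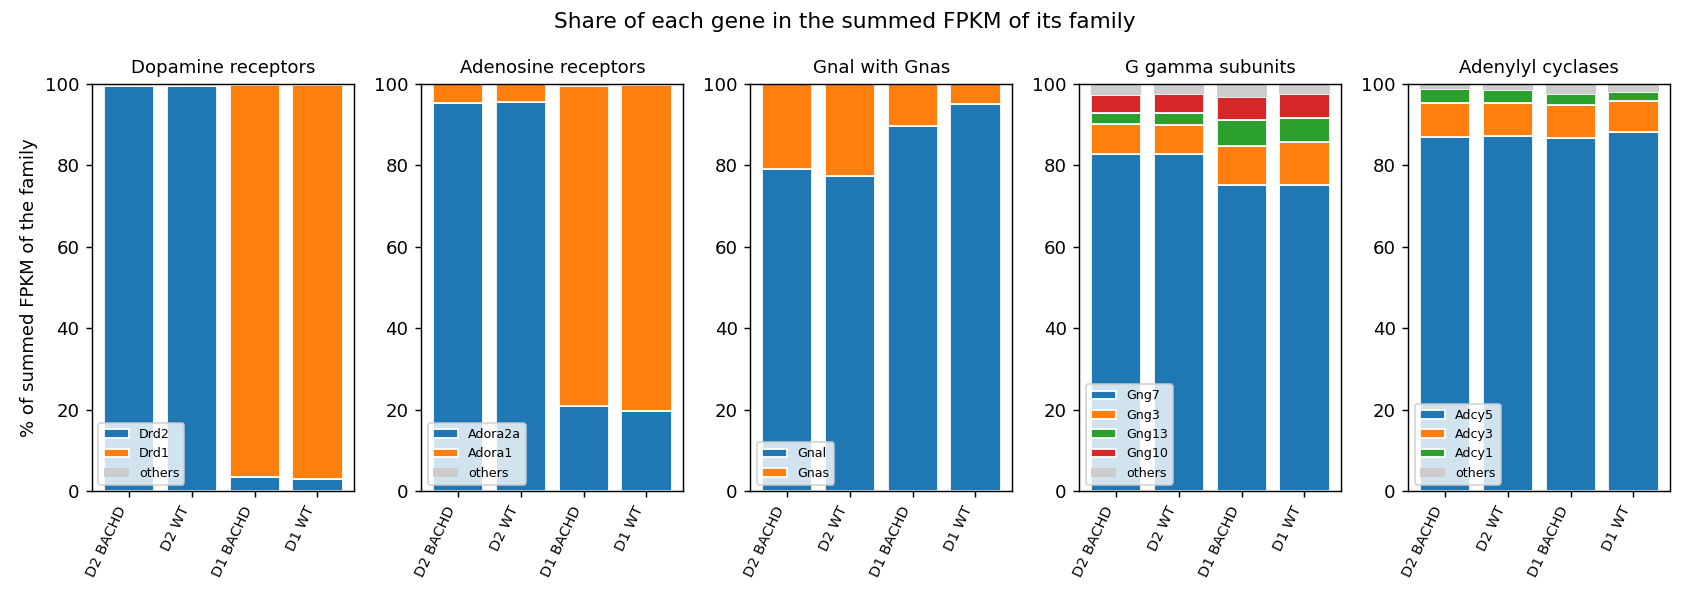
Stacked bars give the share of each gene in the summed FPKM of its family in each pooled library, with genes under 3% in all libraries shown as others. Drd2 and Adora2a fill the D2 receptor bars, Drd1 and Adora1 lead the D1 receptor bars, Gng7 and Adcy5 lead their families, and Gnal leads the sum with Gnas, in all 4 libraries.

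BACHD was then compared with WT. None of the 7 tested members was called by the genotype term, against 0.44% of all genes, which is 59 of 13400. At an unadjusted p under 0.05, 2 of the 7 members (Drd1 and Adcy5) and 1801 of all genes stood below the threshold. DESeq2's Wald test called 77 genes, none of them a member. Within a cell type, a ratio of 1.5 either way with a counting interval excluding 1 was used as a rule of size. No member passed it in D2 cells or in D1 cells, against 2.54% and 3.71% of all genes tested.

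Drd1 had the largest fitted genotype difference among the members, at -0.27 ± 0.08 (log2, SE; edgeR adjusted p = 0.207). It was lower in BACHD in both cell types: 817.8 CPM in D1 BACHD against 915.5 in D1 WT, and 13.4 in D2 BACHD against 18.5 in D2 WT. The BACHD to WT ratio was -0.16 on the log2 scale in D1 cells (counting interval -0.18 to -0.14) and -0.47 in D2 cells (-0.62 to -0.31), where the level was near 2% of that in D1 cells. In the same D1 libraries Pdyn was at 322.1 CPM in BACHD and 262.0 in WT, and Tac1 at 772.7 in BACHD and 872.1 in WT, so direct-pathway markers did not all move one way there. The 7 direct-pathway markers, Drd1 among them, had a summed log2 ratio of -0.06 in D1 cells (3 of 7 higher in BACHD). In D2 cells, where these markers were low, that ratio was -0.38 (2 of 7 higher). Their part in the D2 value of Drd1, and so in the fitted difference, was not tested.

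Adcy5 was lower in both BACHD libraries by nearly the same amount. The BACHD to WT ratio was -0.14 on the log2 scale in D2 cells (counting interval -0.15 to -0.13) and -0.13 in D1 cells (-0.15 to -0.12). The fitted difference was -0.14 ± 0.06 (log2, SE; edgeR adjusted p = 0.370). The summed markers of both medium spiny neuron types moved alongside, with log2 ratios of -0.16 in D2 cells and -0.13 in D1 cells, and their part in the Adcy5 values was not tested. Gng7 ran the other way, at 0.08 in D2 cells (0.07 to 0.10) and 0.13 in D1 cells (0.11 to 0.15), with a fitted difference of 0.11 ± 0.06 (log2, SE; edgeR adjusted p = 0.448). Counting intervals at this depth are narrow and leave out variation between pools. They excluded 1 the same way in both cell types for 3 of the 7 members. The share was 15.3% of all genes tested and 41.7% of the 899 genes that averaged 200 CPM or more over the 4 libraries. All 7 members reached that mean, but Drd1, Drd2 and Adora2a did so only through their own sort. In the other sort they stood at 27.3 CPM or less, so the 899 genes do not match their depth there. In those 899 genes the central 90% of log2 ratios ran from -0.19 to 0.14 in D2 cells and from -0.23 to 0.17 in D1 cells, which spans the values of Adcy5 and Gng7 in both cell types.

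Gnal showed almost no difference, at -0.0037 in D2 cells (counting interval -0.02 to 0.01) and -0.01 in D1 cells (-0.03 to 0.01), with a fitted value of -0.01 ± 0.06 (log2, SE; edgeR adjusted p = 0.973). Drd2 differed by -0.02 ± 0.06 (adjusted p = 0.909), Adora1 by -0.04 ± 0.05 (adjusted p = 0.802) and Adora2a by -0.01 ± 0.07 (adjusted p = 0.968) in that fit with edgeR. For Adora2a the cell types differed in sign, at -0.10 in D2 cells (-0.11 to -0.09) and 0.12 in D1 cells (-0.0014 to 0.24). The D1 level behind that second value was only 27.3 CPM in BACHD and 25.1 in WT. The 5 measured indirect-pathway markers, Adora2a among them, had a summed log2 ratio of -0.08 in D2 cells (1 of 5 higher in BACHD). In D1 cells, where these markers were low, that ratio was -0.12 (2 of 5 higher). Their part in the Adora2a values was not tested. None of the 7 members had intervals that excluded 1 in opposite ways in D2 and D1 cells, against 4.66% of all genes tested. Drd3, with 11 counts in each D2 library, differed by 0.02 in D2 cells (-1.33 to 1.37) and by 0.28 in D1 cells (-0.46 to 1.03). A 1.5-fold change either way was thus not detectable in D2 cells at this depth. In D1 cells the interval also held a 1.5-fold rise.

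**Figure D4:**
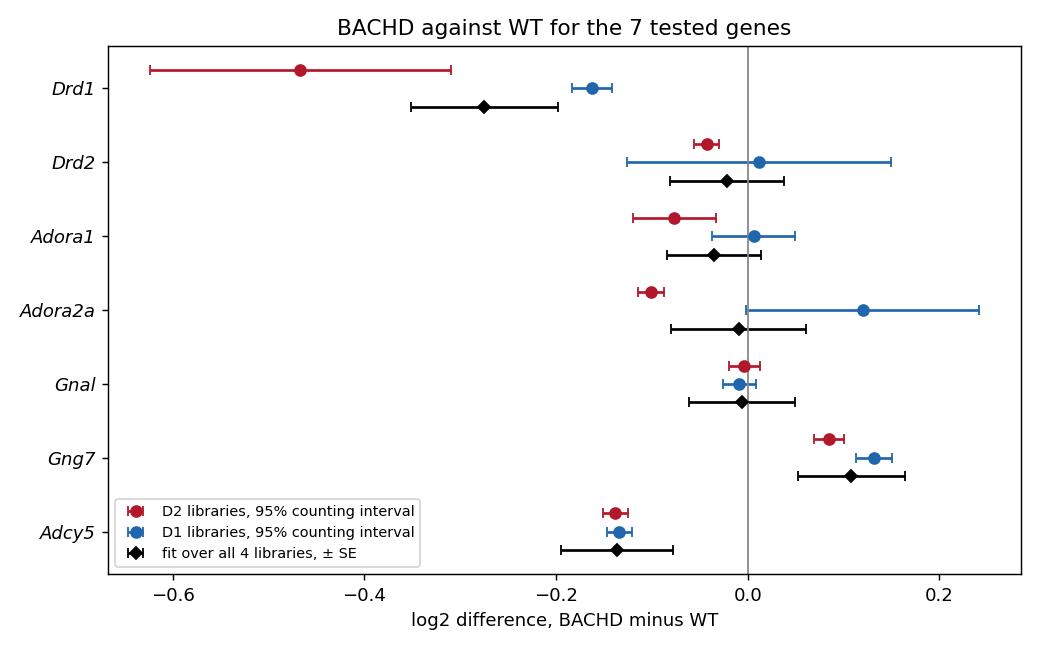
Log2 difference of BACHD minus WT for the 7 tested genes: circles give the ratio of the D2 and of the D1 libraries with 95% counting intervals, and diamonds the edgeR fit over 4 libraries ± SE. Adcy5 lies at -0.14 and -0.13 and Gng7 at 0.08 and 0.13 in D2 and D1 cells, Gnal lies at 0, and no diamond belongs to a called gene.

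The rest of the pathway was read from 64 other genes in 8 lists, of which 42 passed the filter. Of these, 8 were higher and 15 lower in D2 cells by the cell type term, and none was called by the genotype term. Over all genes tested, 6.81% were higher and 10.2% lower in D2 cells, and 0.44% were called by genotype. The median D2 minus D1 difference of the 42 genes was -0.03 (log2), against 0.00 over all genes tested. The largest genotype difference was that of Gng2, at 1.19 ± 0.21 (log2, SE; edgeR adjusted p = 0.0771). DESeq2's Wald test called 1 of the 42 by genotype, Gnao1, at -0.25 (log2; adjusted p = 0.0230). Gng2 and Gnao1 are named here for these genotype values, after the values were seen.

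Among G alpha subunits, 2 of the 10 tested were higher in D2 cells and 5 were lower, against 6.81% and 10.2% of all genes tested. Gnas was at 122.2 CPM in D2 BACHD and 135.1 in D2 WT, against 47.1 in D1 BACHD and 21.6 in D1 WT, a difference of 1.98 ± 0.24 (log2, SE; edgeR adjusted p = 0.00101). Its D2 to D1 ratio was 1.37 in BACHD and 2.64 in WT (log2), and its reads are of uncertain assignment because of Gm20721. Gnao1, an inhibitory subunit, was the other one higher in D2 cells, by 0.35 (log2). Gnai1, also inhibitory, was lower, at 16.3 and 16.0 CPM in D2 BACHD and D2 WT, against 51.0 and 50.6 in D1 BACHD and D1 WT. Gnaz, a further inhibitory subunit, differed by -0.73 (log2), and Gna12, of another class, by -0.42 (log2). Per length, Gnal took 39.3% of all G alpha FPKM in D2 BACHD, 37.2% in D2 WT, 41.4% in D1 BACHD and 40.4% in D1 WT. Gnao1 took 35.4%, 37.9%, 31.2% and 37.4% in the same order, and so stood above Gnal in D2 WT.

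G beta and the other G gamma genes held further cell type differences. Gnb5 was higher in D2 cells, with a log2 difference of 0.52 ± 0.05 (SE), and Gnb4 was lower by 1.87, at 12.6 CPM in D2 BACHD and 15.1 in D2 WT, against 42.2 in D1 BACHD and 60.0 in D1 WT. These were the calls among 4 tested G beta genes. Of 7 other G gamma genes tested, Gng5 was higher in D2 cells by 0.52 (log2), and Gng2, Gng4 and Gng13 were lower. Beside both lists, 6.81% of all genes tested were higher and 10.2% lower in D2 cells. Gng2 was at 0.794 CPM in D2 BACHD and 0.507 in D2 WT, against 10.8 in D1 BACHD and 4.24 in D1 WT. The cortical glutamatergic markers ran in the same order in D1 cells, at 136.9 CPM in D1 BACHD and 27.6 in D1 WT, and their part in the Gng2 values was not tested.

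Of 6 other adenylyl cyclases tested, Adcy1, a calcium-stimulated form, was higher in D2 cells, with a log2 difference of 0.44 ± 0.06 (SE; edgeR adjusted p = 0.00191). Adcy2 was lower, at 2.69 CPM in D2 BACHD and 2.42 in D2 WT, against 13.1 in D1 BACHD and 7.40 in D1 WT, again beside higher cortical markers in D1 BACHD. Adcy9 was lower in D2 cells by 0.40 (log2). Those were the calls among the 6 cyclases, against 6.81% higher and 10.2% lower of all genes tested. The second most abundant cyclase per length, Adcy3, took 7.67% to 8.29% of cyclase FPKM. The 2 chaperones of G alpha subunits, Ric8a and Ric8b, were not called. Ric8b, which serves G-olf, was at 286.2 CPM in D2 BACHD and 306.7 in D2 WT, against 259.8 in D1 BACHD and 270.2 in D1 WT, and the Gnal to Ric8b ratio by FPKM lay between 2.72 and 2.90 in all 4 libraries.

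Genes of adenosine supply and removal included the largest cell type difference of the other pathway lists. Nt5e, the ecto-enzyme that makes adenosine from AMP, was at 50.5 CPM in D2 BACHD and 42.1 in D2 WT, against 1.33 in D1 BACHD and 1.76 in D1 WT. That difference was 4.90 ± 0.14 (log2, SE; edgeR adjusted p = 3.22e-07). Adk, the kinase that turns adenosine back into AMP, was at 44.7 CPM in D2 BACHD and 38.5 in D2 WT, against 8.52 in D1 BACHD and 8.46 in D1 WT, a difference of 2.29 ± 0.08 (log2, SE; edgeR adjusted p = 1.35e-06). The D2 libraries, where Adora2a was high, thus also had higher RNA levels of both genes. In the D1 libraries Adk was at 19.1% (BACHD) and 22.0% (WT) of its D2 level, above the 0.964% to 4.17% seen for Drd2, Adora2a and Nt5e. Of the other 6 genes tested in that list, 4 were lower in D2 cells, among them Entpd1, an ecto-enzyme that breaks down ATP, by 0.86 (log2), and the nucleoside transporter Slc29a3 by 0.85. Of 5 genes of dopamine synthesis, transport and breakdown tested, Ddc was higher in D2 cells, with a log2 difference of 1.55 ± 0.26 (SE; edgeR adjusted p = 0.00522), at 0.475 to 1.96 CPM over the libraries. Beside the adenosine and dopamine lists, 6.81% of all genes tested were higher and 10.2% lower in D2 cells.

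**Figure D5:**
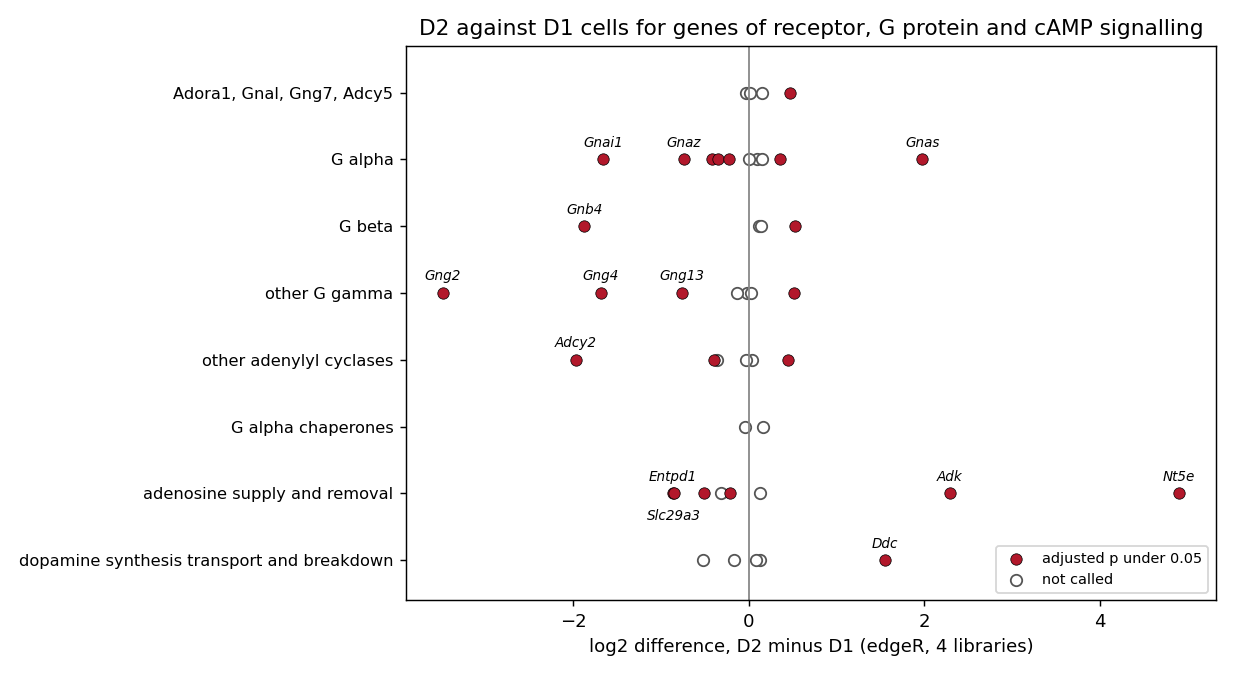
Log2 difference of D2 minus D1 from the edgeR fit for Adora1, Gnal, Gng7, Adcy5 and the 42 tested genes of the other lists, 1 point per gene, filled where the adjusted p was under 0.05. Nt5e (4.90) and Adk (2.29) lie farthest to the right, and Gng2 (-3.48) farthest to the left.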

How the data were processed

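The authors deposited estimated counts and FPKM per gene for 4 libraries. FPKM are counts scaled by gene length and library size. The submitters' processing notes name CASAVA 1.8.2. Build, annotation, aligner, counter and strand setting are not given in the sources. Estimated counts were rounded (19.4% of the deposited entries were not whole). Symbols matched 32897 of 37620 identifiers.

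Genes with at least 1 CPM in 2 libraries (13400) were fitted with edgeR 4.0.16 in R 4.3.3, with TMM scaling, terms for cell type and genotype, and Benjamini-Hochberg adjustment over all 13400. That fit leaves 1 residual degree of freedom, namely how far the genotype effect differs between the cell types. Its p-values and SEs therefore rest largely on the variance of other genes (6.67 prior degrees of freedom at the median). The SE is the absolute log2 difference divided by the square root of F. Ratios of 2 libraries carry exact conditional binomial 95% intervals, which cover counting error only; counts under 3 were set to 3. Alternatives were other scalings, DESeq2 1.42.0, limma-trend 3.58.1 on log2 FPKM with pseudocounts of 0.1 and 1, other filters and thresholds, a fit with only the term tested, and leaving out each library. The scripts were tested on simulated data.

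The members, lists, markers and tests were chosen with earlier results of these data known. Beside the 8 members, the rule named the receptors of both families, up to 4 called genes per list by size of difference, and the 3 nearest profiles of each member spanning at least 1 log2 unit, among genes averaging 10 CPM or more. Overlaps between genes were read from GENCODE M21 on GRCm38, and promoters from RefSeq (GRCm38.p6), which held 6 of the 8 members.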

Additional observations from a re-analysis of the deposited data

Results flagged for a closer look

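Among all 8 members and 64 other pathway genes, 3 genes had BACHD to WT counting intervals that excluded 1 in opposite directions in D2 and D1 cells; no member was among them. All 3 were among the 42 other pathway genes tested, and 4.66% of all 13400 genes tested met the same condition. With 1 library per group these differences were not tested.

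Gnas was at 122.2 CPM in D2 BACHD against 135.1 in D2 WT, and at 47.1 in D1 BACHD against 21.6 in D1 WT. Its log2 ratio in D2 minus that in D1 was -1.27. Gm20721, on the opposite strand, ran with it in D1 cells, with 1287 counts in D1 BACHD against 394 in D1 WT, and had 4370 in D2 BACHD against 3384 in D2 WT. With both genes summed, the log2 ratio was 0.07 in D2 cells (counting interval 0.03 to 0.11) and 1.33 in D1 cells (1.24 to 1.42), so the opposite directions did not remain. The D1 WT library had the lowest level of both genes. The 6 cortical glutamatergic markers also differed between the D1 libraries, at 136.9 CPM in D1 BACHD against 27.6 in D1 WT, and were at 5.25 in D2 BACHD against 3.04 in D2 WT. Their part in the values of Gnas and Adcy7 was not tested.

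Adcy7, a cyclase, had 90 counts in D2 BACHD against 126 in D2 WT, and 136 in D1 BACHD against 83 in D1 WT. The difference of its log2 ratios, D2 minus D1, was -1.20. Entpd1 had 563 counts in D2 BACHD against 474 in D2 WT, and 860 in D1 BACHD against 991 in D1 WT, and that difference was 0.45.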

How the results depend on the processing

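No member was called by genotype and none passed the rule of size under any alternative run. Adora2a kept its cell type call under all 12 alternatives and Gng7 under 11; those of Drd1 and Drd2, which the sort fixed, are not counted. No paired analysis was possible because each group held 1 library and the labels give no replicate numbers. All values rest on 4 unreplicated pools, and genes under about 1 CPM, Drd3 among them, lack the depth for a test.

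The number of all genes called by cell type was 2274; it was 1330 with DESeq2, 810 with no filter, 1449 with the cell type term alone, and 791 to 1215 with a library left out. The split of higher and lower calls was 913 and 1361, against 735 and 2207 under total-count scaling (median of all genes -0.07 log2), and 536 and 1410 by limma at a pseudocount of 0.1, with 504 and 1302 at 1. Other pathway genes called by cell type numbered 23, against 10 with no filter and 12 to 18 with a library left out. By genotype, 59 genes were called; the count was 142 at an adjusted p under 0.1, 144 under total-count scaling, 0 with no filter, 0 and 1 by limma at pseudocounts of 0.1 and 1, 0 with the genotype term alone and 0 with any library left out. Among the other pathway genes it was 2 under total-count scaling (Gng2 and Gnb4), 1 with DESeq2 (Gnao1) and 1 at an adjusted p under 0.1 (Gng2).

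Fits without 1 library hold only the tested term, so for genotype they set unequal cell mixes against each other by construction. The genotype value then ran from -5.13 to 4.49 for Drd1, -5.70 to 5.67 for Drd2, -5.36 to 5.38 for Adora2a, -0.088 to 0.074 for Gnal and -0.14 to 0.38 for Gng7. The cell type value ran from -0.025 to 0.052 for Adora1 and -0.10 to 0.037 for Adcy5. Adora1 also turned to -0.054 under total-count scaling and to -0.049 and -0.048 by limma at pseudocounts of 0.1 and 1. Its D2 to D1 ratio in WT was -0.017 under total-count scaling and -0.0054 and -0.0053 with FPKM plus 0.1 or 1. Adora2a by genotype was 0.0073 and 0.0029 by limma at pseudocounts of 0.1 and 1. 

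Family shares follow in the order D2 BACHD, D2 WT, D1 BACHD, D1 WT. By counts, Adcy5 held 87.9%, 88.4%, 88.5% and 90.1%, Gnal 92.1%, 91.4%, 96.4% and 98.3%, and Gng7 92.8%, 92.9%, 89.0% and 89.1%. With genes at 1 FPKM or more, Adcy5 held 87.1%, 87.5%, 87.6% and 88.6%, and Gng7 82.8% in D2 WT, 75.8% in D1 BACHD and 75.7% in D1 WT. With Gm20721 in the sum, an alternative chosen after seeing the data, Gnal held 66.0%, 67.4%, 83.5% and 92.9%.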
